A study of Mus musculus with 4 samples.

Results

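The genes described here are 7 genes of antibody recognition in bone marrow (BM) macrophages. They are Fcgr1, Fcgr2b, Fcgr3 and Fcgr4 (the mouse receptors for IgG), Fcer1g (the signaling chain shared by Fcgr1, Fcgr3 and Fcgr4), Fcrls (a related receptor-like gene) and Ighm (the constant region of the IgM heavy chain). They were taken by symbol from the 31053 genes of the deposited matrices, and all 7 were among the 13869 genes with enough counts for a test. The genes were chosen by their levels in these same libraries, with the ratio of efferocytic to non-efferocytic levels in both experiments already known. Their own differences are therefore a description and carry no test.

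Single-cell RNA sequencing covered 4 libraries, and each of 2 experiments gave an efferocytic and a non-efferocytic one. The macrophages were grown from the marrow of male C57BL/6J mice, 4 to 6 weeks old, for 4 days in 30 ng/mL of the growth factor M-CSF. Efferocytic BM macrophages had been co-cultured for 16 to 18 h with RM1 cells, a prostate cancer line of C57BL/6J mice, that had been killed by UV light and labeled with the dye CFSE, and were sorted as F4/80+CFSE+. Non-efferocytic BM macrophages came from cultures without RM1 cells and were sorted as F4/80+. F4/80 marks the surface of mature macrophages in mice, and the CFSE signal marks macrophages that hold RM1 material. Contact with dying cells, their uptake, the RM1 material held and the second sorting gate differ together between the groups and cannot be told apart. How much of the counted mRNA came from RM1 cells was not tested. The methods state at least 3 independent mice in each group for work with BM macrophages in general, but do not tie mice to libraries, so that the spread between experiments may be partly technical.

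The cells held 101216659 UMIs (unique molecular identifiers, 1 for each captured mRNA molecule) in 8280 non-efferocytic cells and 124997895 in 6695 efferocytic cells of Experiment 1. In Experiment 2 the numbers were 138349389 UMIs in 13411 non-efferocytic cells and 155224183 in 8408 efferocytic cells. Efferocytic cells thus held more UMIs, with a mean of 18670 against 12224 per cell in Experiment 1 and 18462 against 10316 in Experiment 2. Levels are given in CPM, a gene's UMIs after every library was scaled to the same total over its cells, which are not divided by gene length and do not order the genes among each other. Of 8 macrophage markers, 4 fell and 1 rose by edgeR, where 19% of all genes tested fell and 19.9% rose. Adgre1, the gene of F4/80 and 1 of the 4, was measured at 350 to 525 CPM in every library, and its call and those of C1qa and Mertk were lost without the experiment as a block and when scaled per cell. A total of 118 cell barcodes occurred in both libraries of Experiment 2, 1.4% of the cells of the smaller library, against 14 to 23 in the other pairs, and the Ighm levels that rest on them are given with and without them.

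Receptors for the constant (Fc) part of antibodies let macrophages bind particles coated with IgG. The products of Fcgr1, Fcgr3 and Fcgr4 are activating receptors, which pair with the common chain encoded by Fcer1g. Its cytoplasmic activation motif (ITAM) is phosphorylated by Src family kinases and then recruits the kinase Syk. The product of Fcgr2b carries an inhibitory motif (ITIM) instead, which recruits the phosphatase SHIP1 and opposes the activating receptors. In contrast to this route, the uptake of apoptotic cells is mostly served by receptors for phosphatidylserine and its bridging molecules.

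The genes of this family lie close together. In the mm10 genome (GENCODE vM21 annotation), Fcgr2b (chr1:170958617-170976547, minus strand), Fcgr4 (chr1:171018920-171029761, plus strand), Fcgr3 (chr1:171051174-171064935, minus strand) and Fcer1g (chr1:171229572-171234365, minus strand) share 276 kb of chromosome 1. Fcrls (chr3:87250758-87263738) and Fcgr1 (chr3:96282909-96293969) are both on the minus strand of chromosome 3, and Ighm (chr12:113418558-113422730, minus strand) is a constant-region gene of the heavy chain locus. An antisense gene overlaps Fcgr2b, and its reads are separated only where counting used the strand. Among stretches of 60 bases in the last 500 bases of the transcripts, where the 3′ kit reads, 13 of 2384 stretches of Fcgr2b also occur in Fcgr3 transcripts, and the other 6 genes share none with any other gene.

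RefSeq (GRCm38.p6) gives promoter sequences for 6 of the 7 genes. The 150 bases before the start of transcription are shown for the 4 receptor genes and Fcrls, since they lie next to each other or resemble each other. Capitals mark the PU box (GAGGAA, the core bound by the myeloid factor PU.1, on either strand) and the palindromic GAS motif (TTCNNNGAA, bound by STAT factors). Both motifs were chosen after these sequences had been seen.
Fcgr1 (chr3:96293970-96294119, minus strand): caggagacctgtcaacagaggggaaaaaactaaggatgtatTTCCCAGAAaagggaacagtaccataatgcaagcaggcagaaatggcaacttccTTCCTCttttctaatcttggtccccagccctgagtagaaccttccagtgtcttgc
Fcgr2b (chr1:170976072-170976221, minus strand): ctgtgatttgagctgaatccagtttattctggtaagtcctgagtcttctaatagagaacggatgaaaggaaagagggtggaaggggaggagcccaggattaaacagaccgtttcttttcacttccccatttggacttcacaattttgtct
Fcgr3 (chr1:171059404-171059553, minus strand): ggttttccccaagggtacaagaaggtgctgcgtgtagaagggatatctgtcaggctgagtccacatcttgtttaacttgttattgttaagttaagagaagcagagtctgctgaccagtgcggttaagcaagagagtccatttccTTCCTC
Fcgr4 (chr1:171018776-171018925, plus strand): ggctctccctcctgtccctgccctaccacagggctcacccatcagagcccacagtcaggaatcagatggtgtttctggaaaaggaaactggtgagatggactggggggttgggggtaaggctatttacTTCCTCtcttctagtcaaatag
Fcrls (chr3:87263525-87263674, minus strand): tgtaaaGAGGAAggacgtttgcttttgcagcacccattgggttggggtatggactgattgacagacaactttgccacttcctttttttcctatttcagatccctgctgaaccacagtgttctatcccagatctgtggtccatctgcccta
Over the whole RefSeq window of 250 bases before to 50 after the start, Fcgr1, Fcgr3, Fcgr4 and Fcrls hold 1 PU box each, as do 28.3% of 32851 mouse promoters. Neither Fcgr2b nor Fcer1g holds these letters in the window. Fcgr1 alone holds the GAS letters, at bases -109 to -101, as do 8.3% of all promoters. These matches describe the sequence and do not show binding.

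Among the receptors, the inhibitory Fcgr2b differed by far more than the activating ones. Fcgr2b was measured at 229.9 CPM in non-efferocytic and 99.3 in efferocytic cells of Experiment 1, and at 196.5 and 64.2 CPM in Experiment 2. Both efferocytic libraries lay below both non-efferocytic libraries. The ratio of efferocytic to non-efferocytic CPM was -1.21 and -1.61 on the log2 scale, with a mean of -1.41 ± 0.29 (SD, n = 2 experiments), or 2.66-fold lower.

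Fcgr3, the low-affinity activating receptor, was measured at 692 and 545 CPM in Experiment 1 and at 617 and 486 CPM in Experiment 2 (non-efferocytic first, as in all such pairs). Its log2 ratio was -0.34 in both experiments, and the groups did not overlap. Fcgr1, the high-affinity receptor, was measured at 126 and 103 CPM in Experiment 1 and at 94.0 and 61.6 CPM in Experiment 2. It was lower in the efferocytic library of each experiment, with log2 ratios of -0.28 and -0.61, but the groups overlapped because both levels were lower in Experiment 2. Fcgr4, a receptor for IgG2 antibodies, was measured at 79.1 and 79.6 CPM in Experiment 1 and at 66.6 and 62.2 CPM in Experiment 2. Its log2 ratios of 0.01 and -0.10 had no common direction, and the experiments differed by more than the groups.

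**Figure D1:**
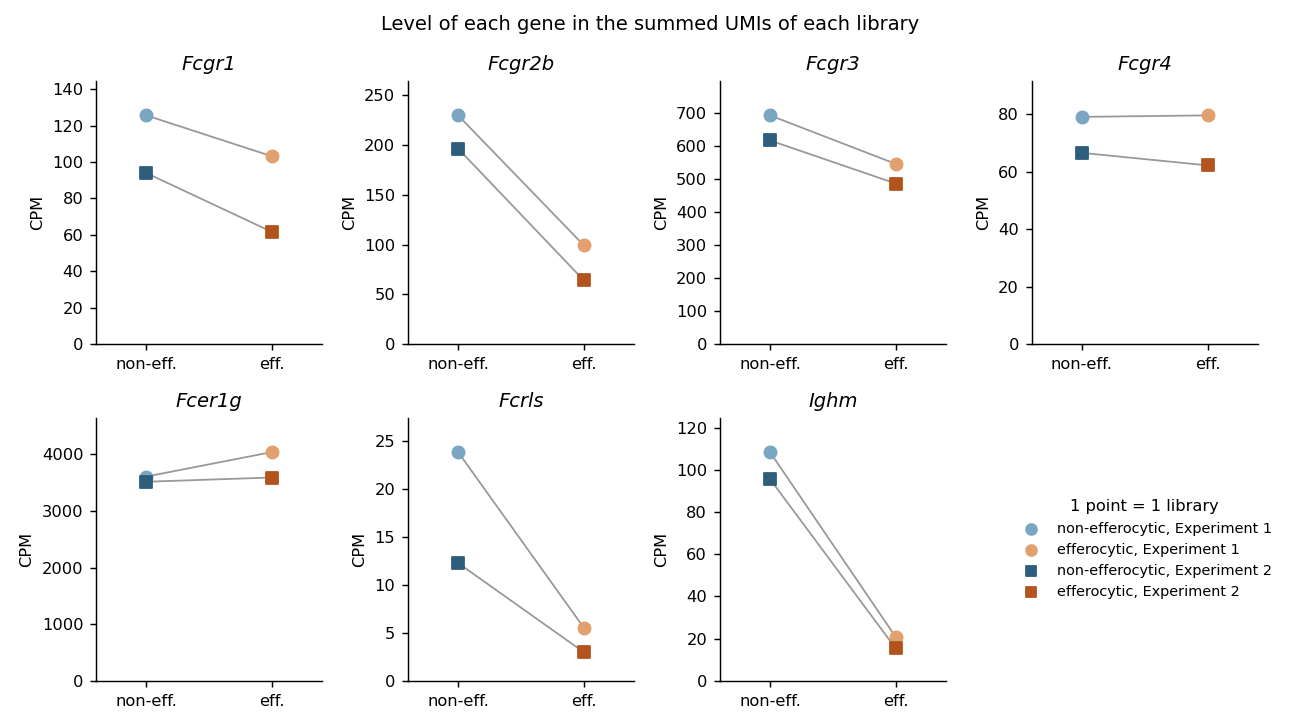
Level of each of the 7 genes in CPM (vertical axes, each from 0) in the non-efferocytic (left) and efferocytic (right) library. Each point is 1 library and each line joins the libraries of 1 experiment. Fcgr2b, Fcgr3, Fcrls and Ighm are lower in both efferocytic libraries than in both non-efferocytic ones, and the lines of Fcgr4 and Fcer1g are nearly level.

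The mixture of IgG receptor mRNAs differed as well. Fcgr2b made up 20.4% of the UMIs of the 4 receptor genes in non-efferocytic and 12.0% in efferocytic cells of Experiment 1, and 20.2% and 9.52% in Experiment 2. For each UMI of the activating receptors, there were 0.256 and 0.136 UMIs of Fcgr2b in Experiment 1 and 0.253 and 0.105 in Experiment 2. Fcgr3 held the largest share in every library, with 61.4% and 65.9% in Experiment 1 and 63.3% and 72.1% in Experiment 2. The share of Fcgr4 was 7.02% and 9.62% in Experiment 1 and 6.84% and 9.23% in Experiment 2. These shares do not depend on the scaling of the libraries.

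Fcer1g, the signaling chain, was measured at 3609 and 4042 CPM in Experiment 1 and at 3518 and 3593 CPM in Experiment 2. Its log2 ratios of 0.16 and 0.03 left the groups overlapping. The signaling chain was thus measured at a similar CPM level while Fcgr2b, Fcgr3 and Fcgr1 were lower. Tyrobp, which encodes DAP12, the other ITAM chain of macrophages, had a log2 fold change of 0.00 ± 0.16 (SE, adjusted p = 0.998, edgeR).

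Fcrls and Ighm differed the most. Fcrls was measured at 23.8 and 5.54 CPM in Experiment 1 and at 12.3 and 2.99 CPM in Experiment 2, from 2413, 692, 1699 and 464 UMIs. Its log2 ratios were -2.11 and -2.04, or 4.21-fold lower on average. Ighm was measured at 108 and 20.8 CPM in Experiment 1 and at 95.6 and 15.4 CPM in Experiment 2. Its log2 ratios were -2.38 and -2.64, or 5.69-fold lower on average, and the groups were far apart for both genes.

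A log2 ratio of -0.5 or below in both experiments was seen for 3 of the 7 genes (Fcgr2b, Fcrls and Ighm) and for 17.8% of all genes tested, and a ratio of 0.5 or above for none of the 7 and for 4.25% of all genes. The limit of 0.5 was chosen after the data had been seen. Both efferocytic libraries lay below both non-efferocytic ones for 4 of the 7 genes and for 44.7% of all genes tested. Since this contrast chose the genes, nothing is read from these counts.

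The scaling decides the direction of the smaller differences. Per cell, the median over all genes tested was 0.60 on the log2 scale, since efferocytic cells held more UMIs, against -0.12 in CPM. Per cell, Fcgr3 was higher in efferocytic libraries, at 8.46 and 10.2 UMIs in Experiment 1 and 6.36 and 8.97 in Experiment 2. Fcgr1 was also higher per cell, at 1.54 and 1.93 UMIs in Experiment 1 and 0.970 and 1.14 in Experiment 2. Fcgr4 and Fcer1g were higher per cell by mean log2 ratios of 0.68 and 0.82, close to the median gene. Fcgr2b remained lower per cell, at 2.81 and 1.85 UMIs in Experiment 1 and 2.03 and 1.18 in Experiment 2. Fcrls and Ighm also remained lower per cell, with mean log2 ratios of -1.35 and -1.78. Per cell, 3 of the 7 genes were lower in both experiments, as were 11.6% of all genes tested, and 4 were higher, as were 77.1%.

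At equal depth, the share of cells in which a gene was detected was lower in both experiments for Fcgr1, Fcgr2b, Fcgr3, Fcrls and Ighm. For Fcgr4 and Fcer1g it had no common direction. To compare cells of equal depth, each cell was thinned to 5000 UMIs, which left out 1099 and 544 cells of Experiment 1 and 3404 and 505 cells of Experiment 2. An Fcgr2b UMI was then found in 61.6% (95% CI 60.5 to 62.7) of non-efferocytic and 35.96% (34.8 to 37.2) of efferocytic cells in Experiment 1. In Experiment 2 the shares were 56.1% (55.1 to 57.1) and 26.6% (25.6 to 27.6). These exact binomial intervals cover counting error only.

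Fcgr1 was detected in 41.1% and 34.2% of thinned cells in Experiment 1 and in 33.6% and 24.4% in Experiment 2. Fcgr3 was detected in 92.7% and 88.7% in Experiment 1 and in 90.4% and 86.8% in Experiment 2. Fcgr4 was detected in 29.5% and 30.4%, and in 26.1% and 25.3%. Nearly every cell, at least 99.7% in each library, held a UMI of Fcer1g. Without thinning, the shares of Fcgr1 (59.5% and 62.9%, 45.7% and 53.2%), Fcgr3 (93.7% and 94.5%, 86.4% and 93.9%) and Fcgr4 (46.8% and 60.1%, 37.1% and 54.7%) were higher in the deeper, efferocytic cells.

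**Figure D2:**
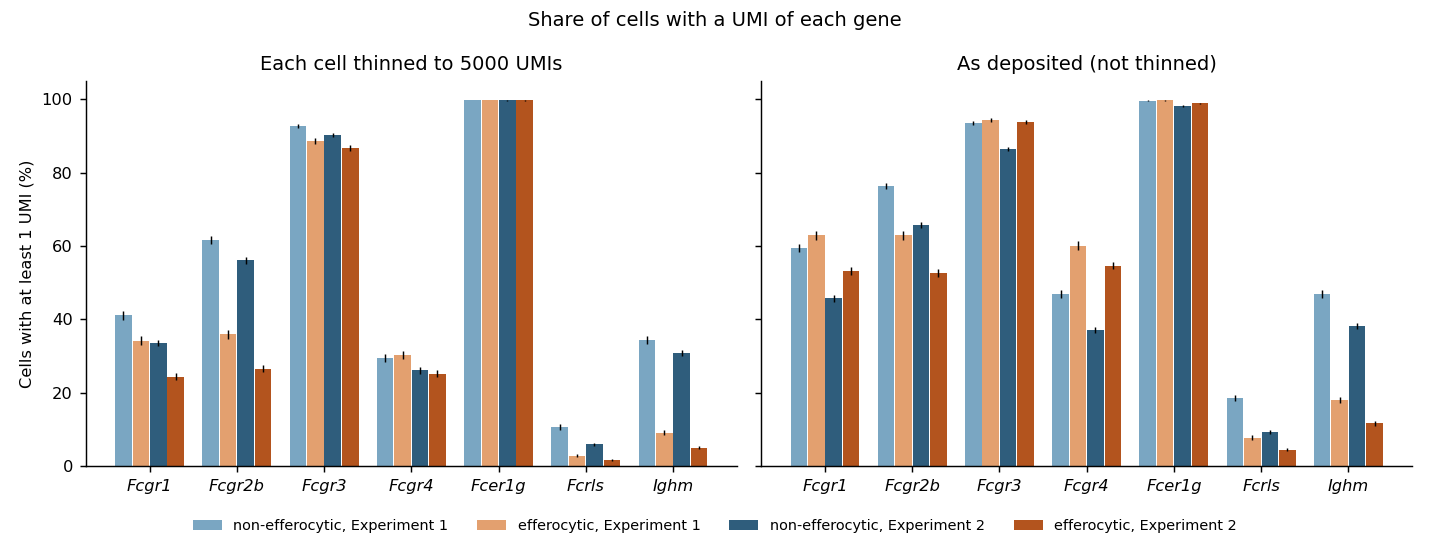
Share of cells with at least 1 UMI of each gene (vertical axis, %), with each cell thinned to 5000 UMIs (left) or as deposited (right). Bars are libraries and error bars are exact 95% binomial intervals. Fcgr2b, Fcrls and Ighm are lower in efferocytic cells in both panels, and Fcgr1 and Fcgr3 change their order between the panels.

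At 5000 UMIs a cell held UMIs of 2.25 and 1.89 of the 4 IgG receptor genes on average in Experiment 1, and of 2.06 and 1.63 in Experiment 2. All 4 genes were detected together in 9.72% and 4.57% of cells in Experiment 1 and in 6.41% and 2.13% in Experiment 2. Cells with no receptor gene detected made up 2.46% and 4.54% in Experiment 1 and 4.36% and 6.95% in Experiment 2. Without thinning, the mean number was 2.76 and 2.80 in Experiment 1 and 2.35 and 2.54 in Experiment 2, and the order of the groups turned.

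Stromal cells should lack these receptors. A barcode with stromal genes may hold free RNA or a macrophage as well, and the values do not tell these apart. Cells with 3 or more collagen-rich markers numbered 37 and 21 in Experiment 1 and 131 and 30 in Experiment 2, with median depths of 39441, 32499, 10768 and 33430 UMIs against 11146, 17171, 9600 and 17476 in all cells. Fcgr3 was measured there at 184, 204, 254 and 91.3 CPM (non-efferocytic and efferocytic of Experiment 1, then of Experiment 2), below its level over all cells in every library. An Fcgr2b UMI was found in 70.3%, 47.6%, 49.6% and 13.3% of these cells, against 76.4%, 62.9%, 65.7% and 52.5% of all cells without thinning. An Fcer1g UMI was found in 100%, 71.4%, 90.1% and 63.3% of them. Whether these collagen-rich barcodes also hold macrophages was not tested.

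The receptors differed in which genes they varied with. Across cells of equal depth, the genes most like each receptor were found by Pearson correlation of log values over 6611 genes, as a mean of the 4 libraries, which hold 6151 to 10007 cells each. For Fcgr1 they were Ifitm3 (r = 0.195), Isg15 (0.190) and Irf7 (0.189), all interferon-induced genes, closely followed by C1qb (0.186). For Fcgr2b they were Selenop (0.268), Apoe (0.247) and Serinc3 (0.234). For Fcgr3 they were Lyz2 (0.300), Apoe (0.270) and Itm2b (0.257), and for Fcgr4 Apoe (0.140), Cd52 (0.135) and Ifitm3 (0.133). Fcer1g was most like Tyrobp (0.476), Lyz2 (0.463) and C1qb (0.430). All these values come from sparse counts, and those under 0.2 are weak. In the efferocytic library of Experiment 2, Fcgr1 was at 0.159 with C1qb, 0.120 with Ifitm3, 0.0724 with Isg15 and 0.0758 with Irf7. Selenop, Apoe and Serinc3 passed the edgeR test as lower in efferocytic cells, as did 19% of all genes tested. Lyz2 and Tyrobp did not pass (adjusted p = 0.298 and 0.998, edgeR).

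Among the 4 receptor genes themselves the correlations were small. The largest was that of Fcgr2b with Fcgr3 (mean r = 0.124), followed by Fcgr1 with Fcgr4 (0.106), and Fcgr1 with Fcgr2b was close to 0 (0.0245). Fcgr3 was more like the common chain (0.231 with Fcer1g) than like any other receptor gene. By the means, so was Fcgr1 (0.120), whereas Fcgr2b (0.0910) and Fcgr4 (0.102) were not. For Fcgr1, Fcgr2b and Fcgr4 this order turned between libraries. In the efferocytic library of Experiment 2, Fcgr4 was at 0.0936 with Fcer1g and 0.0732 with Fcgr2b. There, Fcgr2b was at 0.103 with Fcer1g and 0.0930 with Fcgr3. In the non-efferocytic library of Experiment 1, Fcgr1 was at 0.129 with Fcer1g and 0.164 with Fcgr4. Thinned cells held 17.8 to 19.9 UMIs of Fcer1g on average and 0.310 to 3.43 of a receptor gene. How far these levels shape the correlations was not tested.

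The interferon-related cells were then set apart, a step chosen after the correlations had been seen. Cells in which Isg15, Ifit1, Ifit2, Ifit3, Rsad2 and Irf7 made up at least 0.1% of the UMIs numbered 589 and 297 in Experiment 1 and 362 and 48 in Experiment 2. The class is a range, since 911, 816, 746 and 173 cells lay between 0.05% and 0.2%. Fcgr1 was measured at 375 CPM in these cells and 108 in the others of the non-efferocytic library of Experiment 1, and at 286 and 95.4 CPM in the efferocytic one. In Experiment 2 it was measured at 404 and 85.2 CPM, and at 263 and 60.4 CPM. The level of Fcgr1 in this class was thus 2.998 to 4.74 times that of the other cells over the 4 libraries. For Fcgr4 it was 1.73 to 2.70 times, for Fcgr2b 1.11 to 1.23 times and for Fcgr3 0.853 to 0.978 times. Isg15 and Irf7, which help define the class, had been found most like Fcgr1 in these same cells. The higher level of Fcgr1 in the class is therefore no independent result. Without the class, the log2 ratio of Fcgr1 between the groups was -0.17 in Experiment 1 and -0.50 in Experiment 2, and that of Fcgr2b was -1.21 and -1.61.

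**Figure D3:**
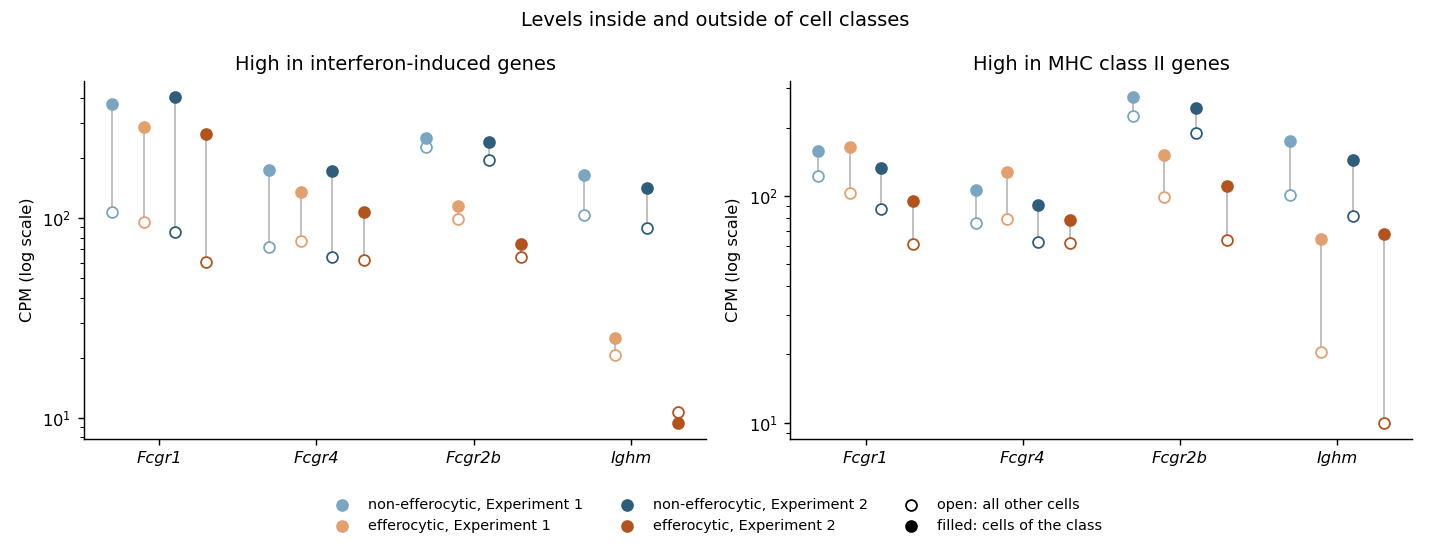
Levels of Fcgr1, Fcgr4, Fcgr2b and Ighm (CPM, log axis) in cells high in interferon-induced genes (left) or MHC class II genes (right), as filled points, and in all other cells of the same library, as open points. Ighm is drawn without barcodes shared between libraries. Fcgr1 shows the widest gap in the left panel and Ighm of the efferocytic libraries in the right panel.

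Cells high in MHC class II genes, which present antigen, numbered 754 and 53 in Experiment 1 and 1588 and 107 in Experiment 2, by the same limit of 0.1% of UMIs (631, 78, 1495 and 103 cells lay between 0.05% and 0.2%). All 4 MHC class II genes fell in efferocytic cells, among them H2-Ab1 (log2 fold change -3.55 ± 0.10 SE), H2-Eb1 (-3.55 ± 0.13) and H2-Aa (-3.40 ± 0.13). Fcgr2b was measured in these cells at 1.21 to 1.73 times its level in the other cells. In the other cells alone, the log2 ratio of Fcgr2b was -1.19 and -1.57 and that of Ighm -2.30 and -2.55 (-2.30 and -3.03 without shared barcodes), nearly as over all cells.

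IgM heavy chain mRNA was found in these cells while most, but not all, of the B-lineage markers looked at were sparse or absent. Over all cells Ighm gave 10972 and 2599 UMIs in Experiment 1 and 13230 and 2388 in Experiment 2, whereas the B-cell receptor chain Cd79a gave 5, 5, 20 and 15. Some other markers were counted more often. With libraries in the same order, Cd79b had 419, 374, 577 and 370 UMIs, and Ebf1 had 204, 139, 301 and 203. Cd22 had 1204, 1838, 1479 and 1786. In the efferocytic library of Experiment 2, this last count lay above the 1638 UMIs left for Ighm without shared barcodes. How far Ighm stood out thus depended on the marker. The B-lineage markers Rag1, Rag2 and Dntt were at 0 in every library, and Pax5, Igll1, Blk and Tnfrsf13c had at most 3 UMIs in each. Of 21 B-lineage markers, 8 could be tested and the summed level was 20.9 and 20.1 CPM in Experiment 1 and 20.9 and 18.2 in Experiment 2. Cd22, an inhibitory receptor, rose (log2 fold change 0.31 ± 0.10 SE, adjusted p = 0.040, edgeR), a call lost under 6 alternatives (no block, DESeq2, library totals, a mean of at least 10 CPM, cells of at least 5000 UMIs, and other cell types left out). Its value was 0.10 when the efferocytic library of Experiment 1 was left out and 0.53 when that of Experiment 2 was. Cd79b, Ebf1 and Vpreb1 fell (-0.53 ± 0.15, -0.69 ± 0.16 and -1.04 ± 0.24), each at a mean level under 5 CPM. Cd79a (-0.41 ± 0.51), Jchain (0.00 ± 0.37), Bank1 (-0.57 ± 0.32) and Mzb1 (0.07 ± 0.40) did not pass the test. Ms4a1, Vpreb3, Cr2, Pou2af1 and Spib had at most 14 UMIs in each library.

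Cells with an Ighm UMI numbered 3883 and 1207 in Experiment 1 and 5134 and 981 in Experiment 2. Of these, 79.8%, 69.9%, 81.7% and 73.8% held no UMI of any B-lineage marker, against 82.3%, 74.8%, 86.7% and 77.3% of the other cells. A UMI of a light chain gene, whose product pairs with the heavy chain, was found in 8, 7, 8 and 7 of the cells with an Ighm UMI. Thinned to 5000 UMIs, Ighm was detected in 34.3% (95% CI 33.2 to 35.4) and 9.09% (8.38 to 9.83) of cells in Experiment 1 and in 30.8% (29.9 to 31.8) and 5.02% (4.55 to 5.53) in Experiment 2. No cell of Experiment 1 held more than 21 UMIs of Ighm.

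In Experiment 2, a pair of barcodes stood apart. They occurred as cells in both libraries and held 604 and 604 UMIs of Ighm for the first, and 104 and 114 for the second. They also held 457 to 556 UMIs of the light chain gene Igkc and 5 to 22 of Jchain, genes of antibody-secreting cells, and at most 1 of Fcer1g. Shared barcodes held 5.93% of the Ighm UMIs of the non-efferocytic and 31.4% of those of the efferocytic library of Experiment 2. Without shared barcodes Ighm was measured at 90.6 and 10.7 CPM in Experiment 2, and its log2 ratio was -3.09 in place of -2.64. In Experiment 1 it was -2.38 with and without them. Outside shared barcodes, no cell of Experiment 2 held more than 14 UMIs of Ighm.

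Barcodes of 10 to 100 UMIs, too few for a cell, were taken as a profile of free RNA, and whether the RNA in the droplets of cells has this profile was not tested. They held Ighm at 683 and 981 CPM in Experiment 1 and at 62.2 and 49.4 CPM in Experiment 2. They held 3.03 and 3.38 UMIs of Igkc for each UMI of Ighm in Experiment 1, where cells held 0.00419 and 0.106. In Experiment 2 the values were 0.755 and 1.69 in these barcodes and 0.198 and 1.02 in cells. Without shared barcodes, cells held 0.00423 and 0.106 UMIs of Igkc for each UMI of Ighm in Experiment 1 and 0.00024 and 0.00122 in Experiment 2. When 10% of the UMIs of each library were removed in proportion to the profile of these barcodes, Ighm went from 10972 to 4060 UMIs and from 2599 to 0 in Experiment 1. In Experiment 2 it went from 13230 to 12369 and from 2388 to 1621. If free RNA in the droplets of cells had this profile, Igkc without shared barcodes would limit it to at most 0.0221% and 0.0668% of the UMIs of cells in Experiment 1. Such a share would bring 0.151 and 0.655 CPM of Ighm, against the 108 and 20.8 CPM measured. In Experiment 2, where cells held 3 and 2 UMIs of Igkc, the limits under the same condition were 0.0465% and 0.0156%, or 0.0289 and 0.00772 CPM of Ighm. These limits do not cover free RNA of another profile, so that they do not settle how much Ighm in cells was free RNA.

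Collagen-rich cells, which should lack Ighm, held it at 33.9 and 4.46 CPM in Experiment 1 and at 347 and 665 CPM in Experiment 2. Without shared barcodes the levels in Experiment 2 were 45.8 and 1.12 CPM. By CPM, all 4 libraries thus lay below the level over all cells. As counts, 37 and 21 such cells of Experiment 1 held 49 and 3 UMIs of Ighm. In Experiment 2, 125 and 24 held 91 and 1 without shared barcodes. Over all cells, shared barcodes included, the means were 1.33 and 0.388 UMIs per cell in Experiment 1, and 0.987 and 0.284 in Experiment 2. Whether these barcodes also hold macrophages was not tested. A UMI of Ighm was found in 54.1% of collagen-rich cells against 46.9% of all cells in the non-efferocytic library of Experiment 1, and in 9.52% against 18.0% in the efferocytic one. In Experiment 2 the shares were 33.6% against 38.3%, and 6.67% against 11.7%. Without shared barcodes they were 33.6% and 4.17% in the collagen-rich cells of Experiment 2. The collagen-rich cells were deeper in every library, so that these shares are not compared at equal depth.

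**Figure D4:**
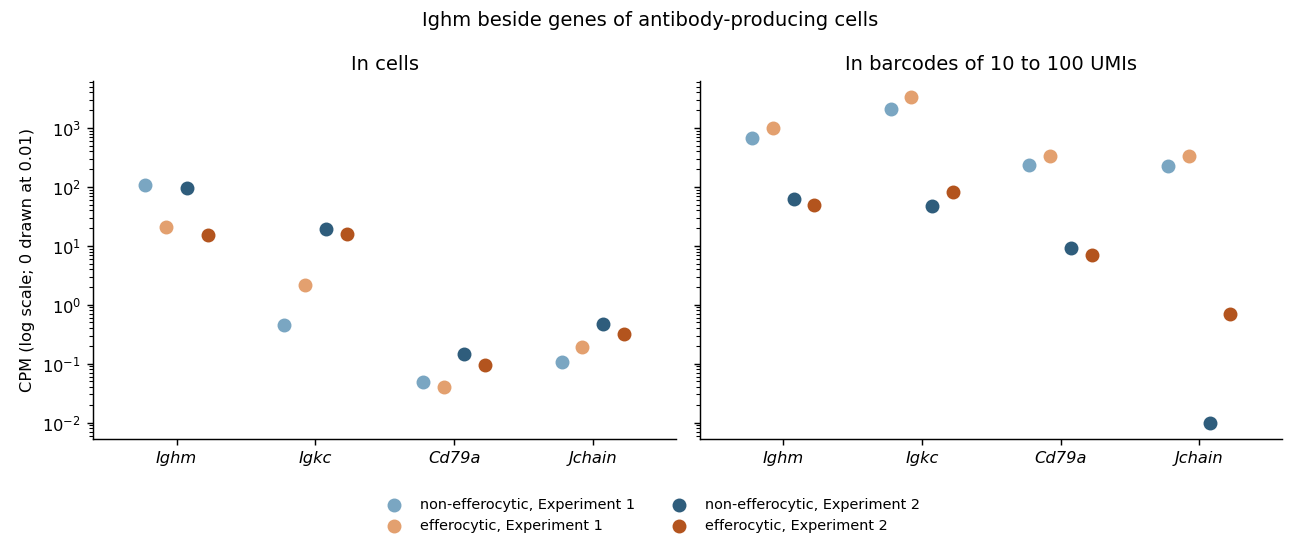
Levels of Ighm, the light chain gene Igkc, the B-cell receptor chain Cd79a and the antibody joining chain Jchain (CPM, log axis, 0 drawn at 0.01) in cells (left) and in barcodes of 10 to 100 UMIs (right). Each point is 1 library. In cells of Experiment 1 Ighm lies far above the other 3 genes, whereas Igkc lies above Ighm in the barcodes of few UMIs of the same experiment.

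The genes most like Ighm across cells, shared barcodes included, were Selenop (mean r = 0.265), Serinc3 (0.238) and Csf1r, the M-CSF receptor (0.203). In the efferocytic library of Experiment 2 the values were 0.152, 0.119 and 0.111. Which cells made the Ighm mRNA was not tested by these correlations. The correlation of Ighm with Fcgr2b was 0.127. Selenop and Serinc3 are also among the 3 genes most like Fcgr2b. In efferocytic cells Selenop (log2 fold change -1.20 ± 0.18 SE, adjusted p = 0.0017, edgeR), Serinc3 (-1.27 ± 0.11) and Csf1r (-1.15 ± 0.11) fell. Without shared barcodes, Ighm in cells high in MHC class II genes was measured at 175 CPM against 101 in the other cells of the non-efferocytic library of Experiment 1, and at 64.3 against 20.5 in the efferocytic one. In Experiment 2 the levels were 144 and 81.9 CPM, and 67.8 and 10.0 CPM.

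Fcrls was sparse, found in 10.7% and 2.80% of thinned cells in Experiment 1 and in 5.95% and 1.59% in Experiment 2. Its level in non-efferocytic cells differed between the experiments, and the difference between groups was larger. The genes most like it, Selenop (mean r = 0.110), Apoe (0.101) and Igfbp4 (0.098), were only weakly so.

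The other genes of the pathway, which are not among the 7, could be tested with edgeR over all 13869 genes, of which 38.9% passed (19.9% higher and 19% lower in efferocytic cells). Over 5 lists with 76 genes tested, 12 rose and 23 fell. Of 13 other Fc receptors, 4 had enough counts, and 2 of them fell. Fcgrt, the recycling receptor for IgG and albumin, was measured at 174 and 74.5 CPM in Experiment 1 and at 139 and 41.0 CPM in Experiment 2 (log2 fold change -1.39 ± 0.14 SE, adjusted p = 3.2e-04). Fcrla fell from a trace level (0.613 and 0.168 CPM, 0.499 and 0.129 CPM; -1.80 ± 0.29). Fcrl1 (-0.16 ± 0.10) and Trim21, the receptor for antibodies in the cytosol (-0.04 ± 0.09), did not pass the test.

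The subunits of the IgE receptor that pair with Fcer1g, and receptors for other antibody classes, were nearly absent. Fcer1a, Fcamr and Fcrl6 were at 0 in every library, which allows up to 0.0193 to 0.0296 CPM in each (3 counts). Fcer2a, Fcmr and Pigr had at most 3 UMIs in any library. Ms4a2 was at 0.0395 CPM (4 UMIs) in the non-efferocytic library of Experiment 1 and at 0 in the others, Fcrl5 reached 0.0395 CPM and Fcrlb 0.0889 CPM.

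Downstream of the activating receptors, 6 of 34 genes of ITAM signaling rose and 6 fell, with a median log2 fold change of -0.10 against -0.02 over all genes. Cblb, an E3 ubiquitin ligase that restrains ITAM signaling (1.06 ± 0.07 SE), Lat2, a membrane adaptor (1.04 ± 0.10), and Pik3cb, a phosphoinositide 3-kinase subunit (0.57 ± 0.08), rose. Lat2 was measured at 192 and 364 CPM in Experiment 1 and at 220 and 423 CPM in Experiment 2. Fgr, a Src family kinase (-0.68 ± 0.17), Vav2, a guanine nucleotide exchange factor (-0.57 ± 0.09), and Bcl10, an adaptor of the NF-kB route (-0.53 ± 0.08), fell. Syk itself was measured at 164 and 142 CPM in Experiment 1 and at 164 and 135 CPM in Experiment 2 and did not pass the test (-0.14 ± 0.09, adjusted p = 0.246).

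In the inhibitory arm, 3 of 18 genes rose and 7 fell (median -0.13). Lair1, a collagen receptor (0.61 ± 0.08 SE), Cd200r1, the receptor for CD200 (0.56 ± 0.08), and Ptpn11, the phosphatase SHP2 (0.26 ± 0.08), rose. Pilra (-1.28 ± 0.12), Clec4a2 (-0.64 ± 0.08) and Lilrb4a (-0.42 ± 0.08) fell. The gene of SHIP1, Inpp5d (-0.07 ± 0.09), and that of the phosphatase SHP1, Ptpn6 (0.07 ± 0.08), did not pass the test. Neither did the receptors Sirpa (0.28 ± 0.11, adjusted p = 0.079, edgeR) and Pirb (-0.08 ± 0.09, adjusted p = 0.536), at mean levels of 828 and 257 CPM.

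Other receptors that signal through Fcer1g also moved both ways, with 2 of 7 genes tested higher and 2 lower (median -0.06). Pira2, a paired Ig-like receptor (0.85 ± 0.11 SE), and Clec4d, a C-type lectin of the Dectin-2 family (0.51 ± 0.11), rose. Clec4b1 (-0.97 ± 0.13) and Clec4n, the gene of Dectin-2 (-0.72 ± 0.09), fell. Of 13 genes in a list drawn up around DAP12, 1 rose (Clec5a, 0.59 ± 0.11) and 6 fell (median -0.32), among them Nfam1 (-0.38 ± 0.08), Cd300lb (-0.32 ± 0.09) and Cd300ld (-0.25 ± 0.08). Not every gene of this list need signal through DAP12, and the pairing was not tested. Trem2, a lipid receptor, was measured at 1742 and 1892 CPM, and at 1933 and 1851 CPM (0.14 ± 0.14), and did not pass the test.

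**Figure D5:**
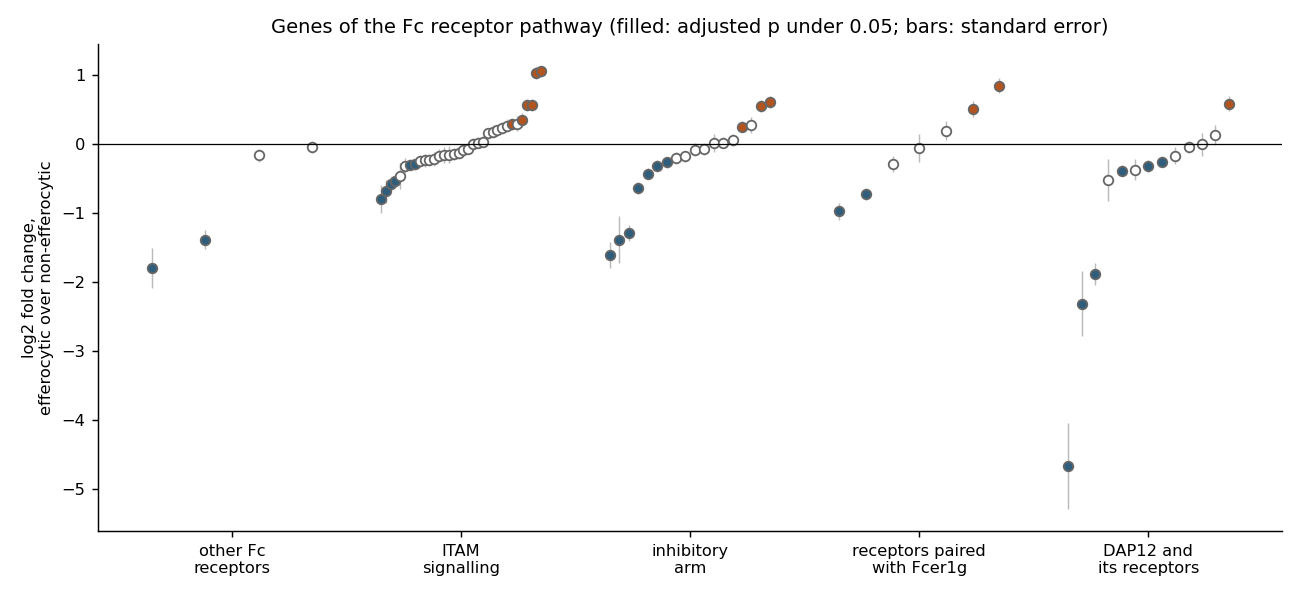
Log2 fold change of efferocytic over non-efferocytic libraries (vertical axis) for each tested gene of 5 pathway lists, in order of size within a list. Points are genes, bars are standard errors and filled points have an adjusted p under 0.05 (edgeR). Other Fc receptors hold only lower calls, and the remaining 4 lists hold calls in both directions. The lowest point, Siglech, rests on a mean of 0.151 CPM.

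Without the experiment as a replicate block, 7 genes of these lists rose and 11 fell, and with the non-efferocytic library of either experiment left out, none passed. Scaled per cell, 33 rose and 7 fell. By name, only the genes of these lists given above with a log2 fold change were followed. Of these, the lower calls of Fgr, Vav2, Bcl10, Clec4a2, Lilrb4a, Clec4b1, Clec4n, Nfam1, Cd300lb and Cd300ld were lost when scaled per cell. Of the same named genes, Fgr, Vav2, Ptpn11, Lilrb4a, Clec4b1, Clec4d, Pira2, Cd300lb and Cd300ld lost their calls without the block. The call of Ptpn11 was also lost with DESeq2, library totals and a mean of at least 10 CPM, and that of Cd300ld with DESeq2 and with no filter on genes. With 1 library left out, the log2 fold change moved by over 1.5 times for Pira2 (1.31 without the efferocytic library of Experiment 1, 0.35 without that of Experiment 2), Clec4b1 (-0.59 and -1.32 without the non-efferocytic library of Experiment 2 and 1), and Fcgrt (-1.86 and -0.92, with the same libraries left out as for Pira2). It did so too for Ptpn11 (0.39 and 0.13, likewise), Fgr and Cd300ld. Without the non-efferocytic library of Experiment 2 it was -0.39 for Fgr and -0.38 for Cd300ld, which was at -0.11 without that of Experiment 1.

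Within 100 kb of the 7 genes, a distance chosen after the files had been seen, 29 other genes were tested, of which 5 rose and 4 fell, where 38.9% of all genes passed. Between Fcgr3 and Fcer1g, Sdhc, a subunit of succinate dehydrogenase (0.50 ± 0.08 SE, adjusted p = 0.0025, edgeR), Tomm40l (0.37 ± 0.08) and Pcp4l1 (1.26 ± 0.11) rose, while Cfap126 (-0.45 ± 0.14) fell.

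Markers of other cells moved with the groups. Neutrophil genes summed to 3062 and 968 CPM in Experiment 1 and to 3355 and 725 CPM in Experiment 2, and 9 of 10 fell, among them Camp (-2.19 ± 0.16 SE), Ltf (-2.17 ± 0.14) and Ngp (-1.99 ± 0.12). All 4 monocyte markers fell, among them Ccr2 (-2.56 ± 0.22), Ly6c2 (-1.61 ± 0.16) and F13a1 (-1.20 ± 0.17). Of 6 collagen-rich markers 5 fell, among them Col1a1 (-1.49 ± 0.10), Col1a2 (-1.42 ± 0.09) and Sparc (-1.32 ± 0.08). Natural killer, basophil or mast cell and epithelial markers summed to at most 10.97 CPM in any library, with 1 of 2, 0 of 1 and 1 of 8 tested genes lower. Other immunoglobulin constant genes summed to 0.534 and 2.80 CPM in Experiment 1 and to 22.7 and 18.8 CPM in Experiment 2, with none of 5 tested genes passing (Igkc, 0.64 ± 0.44). Among macrophage markers, Csf1r, C1qa (-0.67 ± 0.12) and Adgre1 (-0.38 ± 0.10) fell and Cd68 rose (0.63 ± 0.12). The calls of F13a1, C1qa and Adgre1 were lost without the block and when scaled per cell, where Adgre1 turned to 0.24. The value for F13a1 was -0.22 with the non-efferocytic and -2.41 with the efferocytic library of Experiment 1 left out, and -0.30 when the efferocytic one of Experiment 2 was. With cells left out that held 3 or more B-lineage, neutrophil, natural killer, basophil or mast cell, or collagen-rich markers (monocyte and epithelial markers were not used), the mean log2 ratio was -1.44 for Fcgr2b, -2.11 for Fcrls and -2.75 for Ighm, as large as over all cells.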

How the data were processed

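Reads had been aligned to mm10 by the authors, using Cell Ranger (version 3.0.0 in the methods and the file headers of Experiment 1, 3.1.0 in those of Experiment 2) and the deposited matrices hold unnormalized UMI counts, with no filter on cells. A barcode was kept as a cell if it had 200 or more genes, 1000 or more UMIs and no more than 10% of UMIs from mitochondrial genes, and doublets were kept. The mean depth was 10316 to 18670 UMIs per cell. Counts were summed per library, since cells are not replicates. The 7 genes and all gene lists were chosen with earlier results of these data known.

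The pathway lists and markers were tested in R 4.3.3 by the quasi-likelihood test of edgeR 4.0.16, after TMM scaling and filterByExpr, with experiment blocks, Benjamini-Hochberg adjustment over all 13869 genes and a threshold of 0.05, for efferocytic against non-efferocytic libraries. The experiment label pairs the libraries. Deviations from the group means correlated within an experiment (0.672 over 7097 genes). Named are the 7 genes, all other Fc receptors with their level or count, all B-lineage markers except 1 that is not reported here, for each further list up to 3 called genes per direction with the largest change (mean of at least 5 CPM, the same direction in both experiments), and for each of the 7 genes the 3 genes most like it among those with at least 10 CPM in every library. Genes named outside this rule (Syk, Inpp5d, Ptpn6, Sirpa, Pirb, Trem2, Siglech, Igkc, Mertk, Dcn and the chromosomal neighbors) were chosen after their values had been seen. Cells were thinned with numpy 2.4.6 (seed 1). Simulated counts were used to check the edgeR step. The alternatives comprised scaling, filters on cells and genes, free RNA, cell classes, DESeq2 1.42.0 and libraries left out. Shared barcodes and, for the lists, other cell types were left out as alternatives chosen after the data had been seen.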

Additional observations from a re-analysis of the deposited data

Results flagged for a closer look

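Barcodes of 10 to 100 UMIs entered comparisons between the groups only through the profile used to remove free RNA. They held Ighm at 683 CPM in the non-efferocytic and 981 CPM in the efferocytic library of Experiment 1, from 2504 and 2308 UMIs. The cells of the same libraries held 108 and 20.8 CPM, and the order of the groups was the opposite. In Experiment 2, which had 102 and 70 such UMIs, the levels were 62.2 and 49.4 CPM, below the cells of the non-efferocytic and above those of the efferocytic library. The same barcodes of Experiment 1 held Igkc at 2068 and 3313 CPM, Jchain at 223 and 330 CPM and the stromal gene Dcn at 511 and 798 CPM, against 0.454 and 2.20, 0.109 and 0.192, and 1.11 and 0.264 CPM in cells. With 10% of each library's UMIs taken away along this profile, Ighm in cells of Experiment 1 went from 10972 to 4060 UMIs in the non-efferocytic and from 2599 to 0 in the efferocytic library. If free RNA in droplets of cells had this profile, which was not tested, the level of Igkc in cells without shared barcodes would limit it to at most 0.0221% and 0.0668% of their UMIs, which would bring 0.151 and 0.655 CPM of Ighm. Free RNA of another profile is not limited by this.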

How the results depend on the processing

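With 2 experiments, the spread of each ratio is known only roughly. Fcgr2b, Fcrls and Ighm stayed at a log2 ratio of -0.5 or below in both experiments under each alternative run (3 genes, or 4 without Experiment 1, where Fcgr1 joins them), except that Ighm had no value after removal of 10% of UMIs as free RNA, which took its count in the efferocytic library of Experiment 1 to 0. Per cell, the mean log2 ratio was 0.28 for Fcgr1, 0.38 for Fcgr3 and 0.68 for Fcgr4, which turned their direction, and -0.69 for Fcgr2b, 0.82 for Fcer1g, -1.35 for Fcrls and -1.78 for Ighm. TMM scaling gave -0.22 for Fcgr3, 0.081 for Fcgr4 (turned), 0.22 for Fcer1g and -1.95 for Fcrls. Fcgr4 was also turned without MHC class II high cells (0.023). Fcgr3, with an SD of 0.00067, was -0.35 by the Cell Ranger rule, -0.33 at 5% mitochondrial UMIs, -0.35 at 5000 UMIs, -0.37 with free RNA removed, -0.36 without other cell types and -0.32 without MHC class II high cells. Fcrls was -2.92 with free RNA removed, and Ighm -2.75 without other cell types and -2.73 without shared barcodes. With free RNA removed, the ratio in Experiment 2 went from -1.61 to -2.05 for Fcgr2b and from -0.61 to -0.94 for Fcgr1. In Experiment 1 it was -1.23 and -0.29, nearly as before. In the efferocytic library of Experiment 2, barcodes of few UMIs held these genes at 212 and 210 CPM. Cells of that library held them at 64.2 and 61.6 CPM. In the efferocytic library of Experiment 1, the barcodes held 67.2 and 47.6 CPM, and cells 99.3 and 103 CPM. The 10% removed was a set amount. Under the same profile, Igkc without shared barcodes would limit free RNA to at most 0.0221% and 0.0668% of UMIs in Experiment 1. In Experiment 2 the limits would be 0.0465% and 0.0156%. The values with free RNA removed thus rest on a far larger share than these limits. With either experiment alone, the ratios were -0.61 to -0.28 (Fcgr1), -1.61 to -1.21 (Fcgr2b), -0.34 (Fcgr3), -0.098 to 0.0096 (Fcgr4), 0.03 to 0.16 (Fcer1g), -2.11 to -2.04 (Fcrls) and -2.64 to -2.38 (Ighm).

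The number of IgG receptor genes per cell differed by -0.39 at 5000 UMIs, -0.31 at 2000 UMIs and 0.12 without thinning, where it turned. Shares of cells turned for Fcgr1 (5.46 percentage points) and Fcgr3 (4.15) without thinning, for Fcgr4 at 2000 UMIs (-0.0747) and for Fcer1g at 2000 UMIs (0.19) and without thinning (0.32).

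Without the replicate block, 7 pathway genes were higher and 11 lower, in place of 12 and 23. DESeq2 called 15 lower, library totals 35 lower, and scaling per cell 33 higher and 7 lower. With 1 library left out, without the block, 0 to 11 genes were higher and 0 to 14 lower, with the lone library assumed to vary like the other group. The cause of these shifts was not tested.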
